A study of Mus musculus with 6 samples.

Results

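The cluster of miR-322, miR-503, miR-351, miR-542 and miR-450 is a group of miRNA hairpins that lie next to each other on the mouse X chromosome. It was examined in total RNA from whole aortas of 6 female Apoe-/- mice, measured with quantitative real-time PCR array cards. The assays were chosen by their names, for miR-322, miR-503, miR-351, miR-542 and miR-450 without passenger strands, and this group was selected on the known differences of mmu-miR-542-3p and of 1 of the miR-322 assays between the genotypes. Of 596 mouse miRNA assays, 10 belonged to the cluster. They were mmu-miR-322 on both cards, mmu-miR-503, mmu-miR-351, mmu-miR-542-3p, mmu-miR-542-5p, mmu-miR-450a-5p, mmu-miR-450a-3p, mmu-miR-450b-5p and mmu-miR-450b-3p, the last of which is written in capitals in the table.

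In 3 of the mice both Dicer alleles were floxed (VE-Cadherin-CreERT2Dicer1flox/flox/Apoe-/-, EC-Dicerflox), and 3 littermates had wild-type Dicer (VE-Cadherin-CreERT2Dicer1WT/WT/Apoe-/-, EC-DicerWT). All of the mice carried the Cre transgene, which the VE-cadherin promoter limits to endothelial cells, and lacked Apoe. All received tamoxifen on 5 days and, when 6 to 8 weeks old, began a high-fat diet with 21% fat and 0.15% cholesterol that lasted 12 weeks. Dicer mRNA was not analysed here, and each value is for the entire vessel wall, in which fewer cells of a type and less RNA per cell cannot be told apart.

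Clustered miRNAs are usually cut from a shared primary transcript, first by Drosha into hairpins and then by Dicer into a duplex of a 5p and a 3p arm, of which 1 arm is mostly kept in Argonaute. The seed near the 5′ end of the mature miRNA selects its target mRNAs. MiR-322, known in humans as miR-424, and miR-503 are best known for restraining the cell cycle during the differentiation of muscle and other cells, and both have been studied as brakes on endothelial proliferation and angiogenesis.

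On the reference genome GRCm38.p6, the cluster holds 7 hairpins within 6353 bases of the minus strand. Mir322 (chrX:53054255-53054349) comes first in the direction of the strand, followed by Mir503 after 200 bases and Mir351 after another 630 bases. All of these lie inside the long non-coding RNA gene C430049B03Rik. Mir542 (chrX:53049403-53049487) follows 3767 bases beyond Mir351, outside that gene model, and Mir450-2, Mir450-1 and Mir450b are packed with gaps of 1035, 54 and 75 bases behind it.

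**Figure D1:**
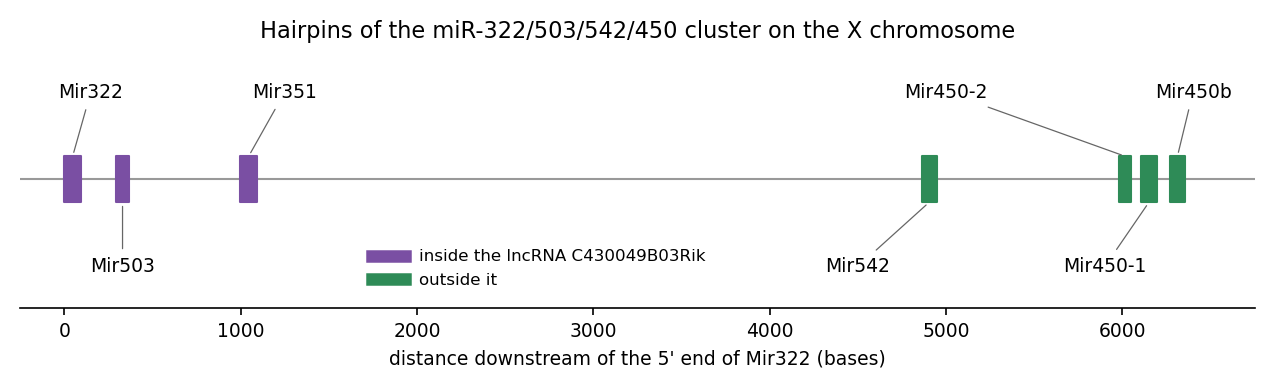
Map of the 7 hairpins, drawn to scale by their distance in bases downstream of the 5′ end of Mir322. Colours separate the 3 hairpins inside the long non-coding RNA gene C430049B03Rik from the 4 outside it, which begin 4862 bases from the start.

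The mature sequences from RefSeq are shown for the arms that the assays name except miR-450a-3p, which RefSeq splits between its hairpins, with the seed (bases 2 to 8) in capitals, because cluster mates do not share 1 seed. Of the 10 assay names, 5 matched a RefSeq mature name when letter case was ignored. The table gives no assay sequences, and miR-503 and miR-351 were taken as the 5p arms. For miR-322, with different assay numbers on the 2 cards, which arm each assay reads was not settled, and both arms are printed.
mmu-miR-322-5p: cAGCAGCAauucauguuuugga
mmu-miR-322-3p: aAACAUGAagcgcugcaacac
mmu-miR-503-5p: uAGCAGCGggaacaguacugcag
mmu-miR-351-5p: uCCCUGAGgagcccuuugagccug
mmu-miR-542-5p: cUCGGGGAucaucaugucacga
mmu-miR-542-3p: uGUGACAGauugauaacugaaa
mmu-miR-450a-5p: uUUUGCGAuguguuccuaauau
mmu-miR-450b-5p: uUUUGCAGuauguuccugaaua
mmu-miR-450b-3p: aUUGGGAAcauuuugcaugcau

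The seed of miR-322-5p is that of the miR-15/16 family, and the seed of miR-503-5p equals it at 6 of 7 positions. MiR-351-5p carries the seed of miR-125. MiR-450a-5p and miR-450b-5p, in contrast, share 5 of the 7 seed positions. MiR-450b-3p and miR-450a-1-3p, the 3p arm of Mir450-1, share all 7 seed positions and 20 of 22 bases. Whether the miR-450b-3p assay tells these arms apart was not tested. For comparison, the family members outside the cluster read as follows.
mmu-miR-16-5p: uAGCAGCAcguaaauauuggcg
mmu-miR-125b-5p: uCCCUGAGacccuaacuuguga

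The deposited values were raw Ct, the number of PCR cycles an assay needed to cross the detection threshold. A later Ct means less RNA, and 40 marks an assay that was not detected. Levels were taken on the log2 scale as the mean Ct of 5 control RNAs minus the Ct of the miRNA, so that a higher level means more RNA relative to the controls. The control mean lay between 19.4 and 20.4 cycles, and from 421 to 454 miRNA assays were detected per aorta. The third replicates of both groups had a control mean that was 0.68 cycles later than in the other 4 aortas, and in 32.5% of the 394 assays detected everywhere the third replicates both had levels beyond all other aortas on the same side. The labels do not call them a batch. Markers of the vessel wall were present, with Ct values from 14.5 to 16.5 for the smooth muscle miR-143 and miR-145 and from 17.2 to 21.3 for the endothelial miR-126-3p and miR-126-5p.

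Of the 10 cluster assays, 7 were detected in all 6 aortas. MiR-351 was detected in 3 aortas, miR-450b-5p in 1 and miR-450a-3p in none. By assay name, miR-450a was thus seen in all aortas from its 5p arm only and miR-450b from its 3p arm only. These counts rest on single assays whose efficiencies are unknown, so the order of Ct values is not an order of copy numbers.

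**Figure D2:**
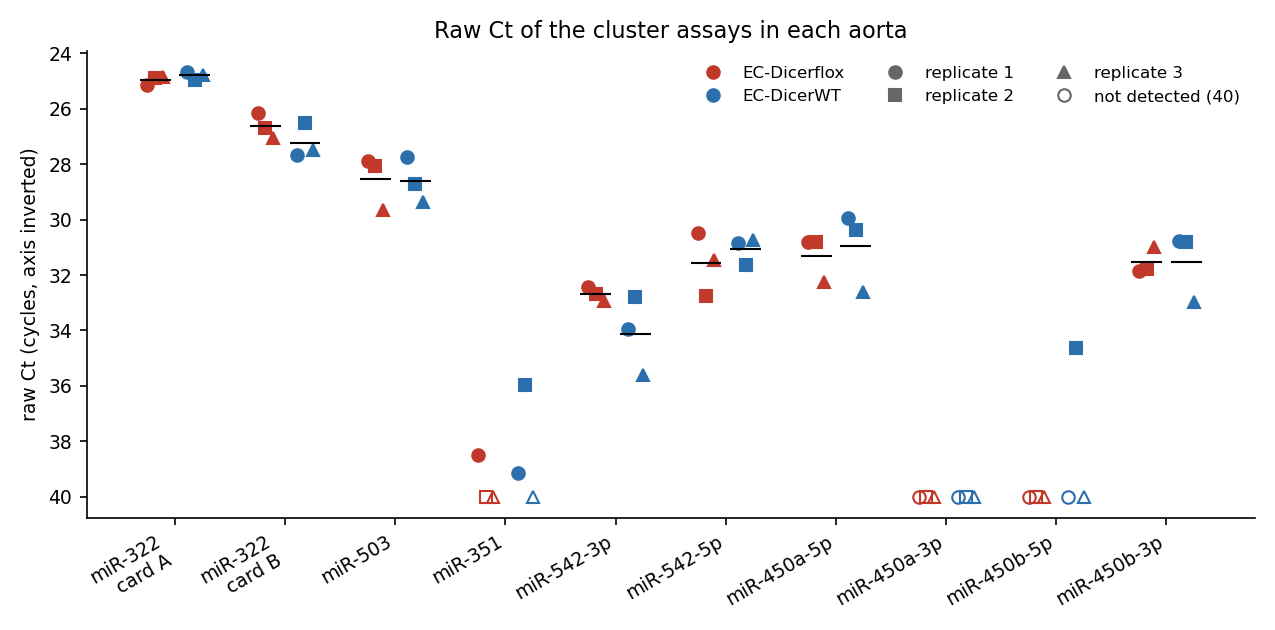
Raw Ct in cycles (inverted axis, more RNA upwards) of the 10 cluster assays in the 6 aortas, with the group by colour, the replicate by symbol and the group mean as a line for assays detected everywhere. MiR-322 on card A spans 0.46 cycles, miR-542-3p spans 3.17 cycles, and open symbols at 40 mark wells without signal.

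MiR-322 on card A had the earliest Ct in the cluster, and its raw Ct hardly varied. The EC-Dicerflox aortas had Ct values of 25.13, 24.90 and 24.85 and the EC-DicerWT aortas of 24.67, 24.94 and 24.77. The SD over the 6 aortas was 0.16 cycles, and only 4 of the 394 assays detected in all aortas had a smaller one. After subtraction from the control RNAs, the SD was 0.47 and ranked 199th, near the middle of the 394. On this scale the third replicates of both groups lay above all other aortas, by 0.78 on average. The mean level of -5.07 ± 0.60 (SD, n = 3) for EC-Dicerflox stood beside -5.06 ± 0.45 (SD, n = 3) for EC-DicerWT, and the groups overlapped.

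The second miR-322 assay, on card B, behaved differently from its namesake. Ct values of 26.14, 26.69 and 27.05 were read in EC-Dicerflox and of 27.67, 26.50 and 27.48 in EC-DicerWT aortas, and these overlapped. The levels were -6.70, -6.82 and -6.70 for EC-Dicerflox, with a mean of -6.74 ± 0.07 (SD, n = 3), and -8.10, -7.05 and -7.31 for EC-DicerWT, with a mean of -7.49 ± 0.55 (SD, n = 3). All EC-Dicerflox levels were thus above all EC-DicerWT levels, and the EC-DicerWT aortas were the more scattered. Within an aorta the card B assay came between 1.01 and 3.00 cycles later than the card A assay, with a SD of 0.75 cycles. For the 6 other miRNA names detected in all aortas on both cards, this SD ranged from 0.44 to 2.20. With the controls of each card taken off first, the SD for miR-322 was 0.62 cycles.

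MiR-503, which lies 200 bases from Mir322, had Ct values of 27.9, 28.1 and 29.6 in EC-Dicerflox and 27.7, 28.7 and 29.4 in EC-DicerWT aortas. The latest Ct in each group was that of the third replicate. The Ct of miR-503 minus that of miR-322 on the same card was 4.70 cycles on average in the third replicates and 3.19 cycles in the other 4 aortas. MiR-351, whose hairpin comes next, was seen at a Ct of 38.5 in EC-Dicerflox replicate 1, 39.2 in EC-DicerWT replicate 1 and 36.0 in EC-DicerWT replicate 2. With all of its signals this late, its difference between the groups of -0.96 has no meaning as a fold.

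MiR-542-3p, known for repressing the apoptosis inhibitor survivin, showed the widest separation of the groups in the cluster. Ct values were 32.4, 32.7 and 32.9 for EC-Dicerflox, a tight set, and 33.9, 32.8 and 35.6 for EC-DicerWT. EC-DicerWT replicate 2 thus lay inside the EC-Dicerflox range on the Ct scale. Its control RNAs were earlier than those of EC-Dicerflox replicates 2 and 3, and on the level scale it fell outside that range. The EC-Dicerflox levels of -13.01, -12.82 and -12.58 had a mean of -12.80 ± 0.21 (SD, n = 3), and the EC-DicerWT levels of -14.37, -13.35 and -15.45 a mean of -14.39 ± 1.05 (SD, n = 3). The gap between the nearest aortas of the groups was small beside the scatter within EC-DicerWT.

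The other arm of the same hairpin did not share this pattern. MiR-542-5p had Ct values of 30.5, 32.8 and 31.4 in EC-Dicerflox and 30.8, 31.6 and 30.7 in EC-DicerWT aortas, and the groups overlapped. The hairpin is printed because both arms are cut from it by the same pair of enzymes, with the 5p and the 3p arm in capitals.
Mir542: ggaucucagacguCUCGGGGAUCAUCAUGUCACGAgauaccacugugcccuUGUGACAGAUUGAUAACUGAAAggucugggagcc

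The Ct of the 3p arm minus that of the 5p arm, which needs no reference RNA, was 1.98, -0.07 and 1.49 cycles in the EC-Dicerflox aortas. In the EC-DicerWT aortas it was 3.11, 1.15 and 4.90 cycles. The spread of 4.97 cycles among aortas was wider than the difference between the group means of -1.92 cycles, and the groups overlapped. The smallest value went with a late 5p arm in EC-Dicerflox replicate 2 and the greatest with a late 3p arm in EC-DicerWT replicate 3.

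**Figure D3:**
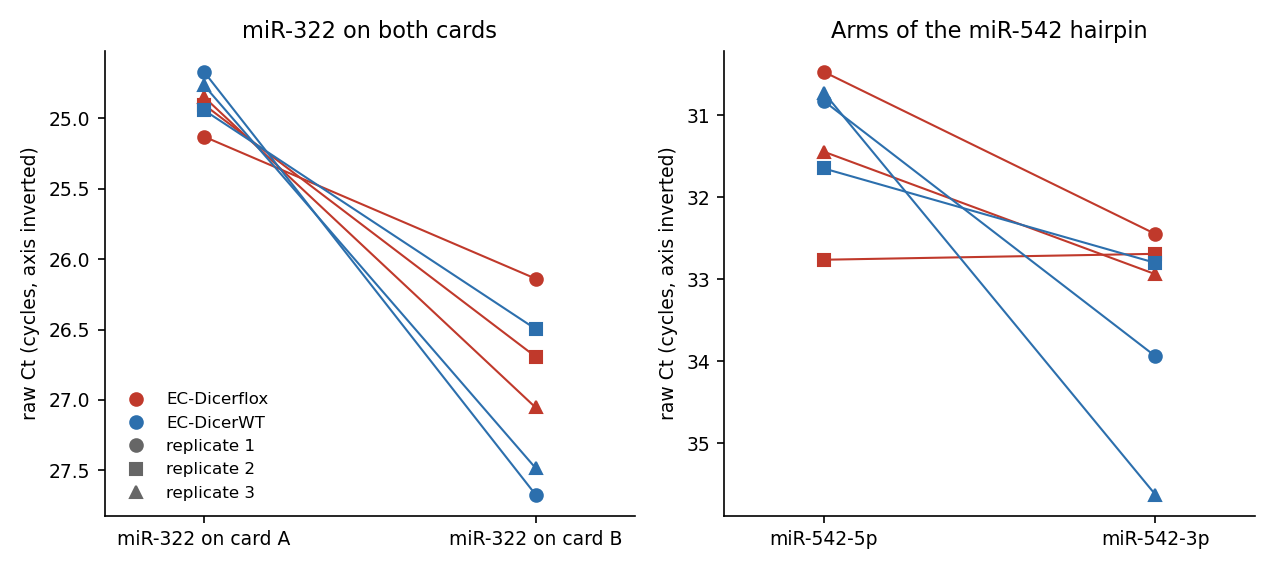
Raw Ct in cycles (inverted axes) of the miR-322 assays on cards A and B, and of miR-542-5p and miR-542-3p, with 1 line per aorta, coloured by group. On the left the lines cross, since the aortas with the earliest Ct on card A had the latest on card B, and on the right the arms were between 0.07 cycles apart in reverse order and 4.90 cycles apart.

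Of the miR-450 assays, miR-450a-5p and miR-450b-3p gave a signal in every aorta. MiR-450a-5p, made from both Mir450-1 and Mir450-2, had Ct values of 30.8, 30.8 and 32.3 in EC-Dicerflox and 29.9, 30.4 and 32.6 in EC-DicerWT aortas, and the third replicates came later than all others, by 1.94 cycles on average. MiR-450b-3p had Ct values of 31.9, 31.8 and 31.0 in EC-Dicerflox and 30.8, 30.8 and 33.0 in EC-DicerWT aortas. Here the third replicate had the earliest Ct in EC-Dicerflox and the latest in EC-DicerWT. MiR-450b-5p was seen in EC-DicerWT replicate 2 alone, at a Ct of 34.6.

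Differences between the genotypes are a description, since the cluster was chosen with them known, and no P value is given for single members. The level in EC-Dicerflox minus that in EC-DicerWT aortas was 1.59 ± 0.57 (SE) for miR-542-3p, or 3.01-fold, and 0.75 ± 0.33 (SE) for miR-322 on card B, or 1.68-fold. It was 0.24 ± 0.46 (SE) for miR-503 and 0.14 ± 0.66 (SE) for miR-450b-3p. The remaining assays had values below zero, -0.01 ± 0.42 (SE) for miR-322 on card A, -0.17 ± 0.62 (SE) for miR-450a-5p and -0.33 ± 0.70 (SE) for miR-542-5p. For these 5 assays the difference was smaller than its error.

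Across the 7 assays detected everywhere, 4 were higher and 3 were lower in EC-Dicerflox aortas, and the median difference was 0.14, beside -0.10 over all 439 tested miRNA assays. With U6 alone as reference the median of the 7 was -0.24 and 2 of them remained above zero, miR-542-3p at 1.21 and miR-322 on card B at 0.37. In replicates 1 and 2 alone, miR-450b-3p was at -0.88 and miR-542-3p at 0.95.

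By limma, 1 of the 8 tested cluster assays had an unadjusted P under 0.05, a threshold that 4.78% of all tested assays passed. None had an adjusted P under 0.05, and neither did any other assay (0%). The values of 2 of the 8, miR-542-3p and miR-322 on card B, did not overlap between the groups, as held for 9.79% of all tested assays. Because these values chose the cluster, nothing is read from the counts. With U6 alone as reference both counts were 0, and with a replicate block the first was 0. Without EC-DicerWT replicate 3 the difference of miR-542-3p was 1.06. The first count was 2 without EC-DicerWT replicate 2 and 0 without any other 1 aorta.

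**Figure D4:**
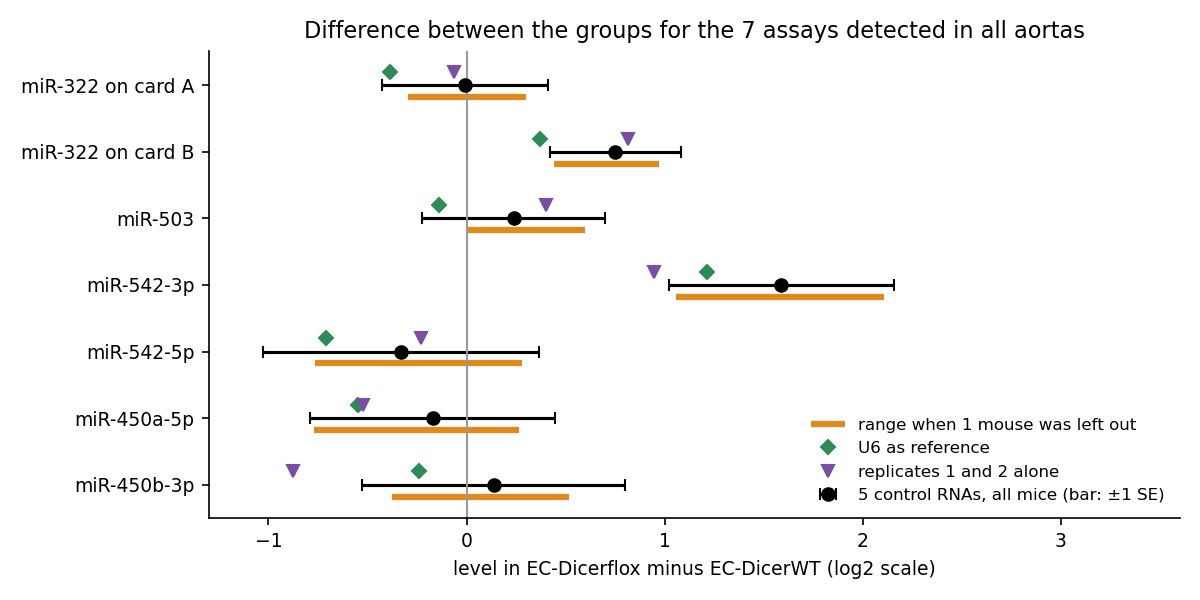
Difference in level between EC-Dicerflox and EC-DicerWT aortas on the log2 scale for the 7 assays detected in all aortas, with the SE as a bar (n = 3 per group). The orange line is the range when 1 aorta was left out, diamonds use U6 as reference and triangles use replicates 1 and 2 alone. MiR-542-3p and miR-322 on card B stay to the right of zero in each of these, but their differences in these same aortas had chosen the cluster.

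The passenger strands, named with an asterisk, are the arms that are mostly discarded. MiR-322* had Ct values of 28.8, 29.7 and 27.7 in EC-Dicerflox and 28.5, 28.9 and 27.6 in EC-DicerWT aortas, so that the third replicates came first in both groups. Its Ct minus that of miR-322 on card B went from 0.09 cycles in EC-DicerWT replicate 3 to 3.01 cycles in EC-Dicerflox replicate 2. Between the genotypes, the level of miR-322* differed by -0.27 ± 0.87 (SE) and miR-503* by -0.15 ± 0.43 (SE), with overlapping groups, and for both the levels of the third replicates were higher than those of the other aortas.

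For miR-322-5p and miR-351-5p, 7 assays outside the cluster that share the seed were examined. All had earlier Ct values than the cluster assays, and each differed by genotype by less than its error. The 5 with the seed of miR-322-5p (miR-15a, miR-15b, miR-16, miR-195 and miR-497) had Ct values from 18.3 to 23.0, and their differences ranged from -0.26 ± 0.29 (SE) for miR-16 to 0.02 ± 0.26 (SE) for miR-195. MiR-125a-5p and miR-125b-5p, with the seed of miR-351-5p, differed by -0.01 ± 0.37 (SE) and -0.02 ± 0.23 (SE). By limma, 0 of these 7 assays had an unadjusted and 0 an adjusted P under 0.05, with a median difference of -0.09.

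Summed levels of cell type markers overlapped between the groups in each of 5 lists. The summed level of the endothelial markers, in multiples of the control mean, was 3.94 to 6.76 in EC-Dicerflox and 4.41 to 7.08 in EC-DicerWT aortas, and that of the leukocyte markers was 1.69 to 2.95 and 2.04 to 3.32. For smooth muscle these ranges were 40.5 to 66.5 and 38.8 to 55.3. Erythrocyte markers summed to 1.19 to 1.71 and 0.967 to 1.60, and striated muscle markers to 2.39 to 3.32 and 2.45 to 2.90. Of the single markers, 1 of the 4 tested for striated muscle had an unadjusted limma P under 0.05 and none of any list an adjusted one. Over all tested assays, 4.78% passed the unadjusted threshold. The marker that passed was the heart muscle miR-208, with Ct values of 31.8, 32.5 and 33.2 in EC-Dicerflox and 30.7, 31.3 and 30.1 in EC-DicerWT aortas. Its level was lower in all EC-Dicerflox aortas, with a difference of -1.65 ± 0.53 (SE), and 9.79% of all tested assays were without overlap in either direction. The other tested striated muscle markers overlapped between the groups. Their differences were -0.15 ± 0.36 (SE) for miR-1, 0.07 ± 0.22 (SE) for miR-133a and 0.23 ± 0.25 (SE) for miR-133b. The part of the markers in the differences of the cluster assays was not tested.

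Whether cluster mates vary together was examined over the 6 aortas, without regard to genotype. Among the 21 pairs of the 7 assays, Pearson's r of the levels ranged from -0.58 to 0.69 with a median of -0.14, and 8 pairs had a positive r. Over all pairs of the 394 assays detected everywhere the median r was 0.06. No test is read for the pair that had selected the cluster. By exact two-sided permutation tests over 720 pairings, no other pair had an unadjusted P under 0.05 for Pearson's r or Spearman's rho. After Benjamini-Hochberg adjustment over all 21 pairs, the smallest adjusted P among those other pairs was 0.84 for r and 0.88 for rho.

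The pair with the highest r was miR-322 on card B and miR-542-3p, the assays that had drawn attention to the cluster. Their r of 0.69 and rho of 0.89 are a description with no test, since a shared shift between the genotypes was what selected both assays and it alone gives a positive r. Without the 2 aortas farthest from the median of miR-322, EC-DicerWT replicates 1 and 3, r was 0.81 over 4 aortas. After the group means were taken off, r was 0.22. In replicates 1 and 2 alone, r was 0.98 over 4 aortas. The 0.81 and the 0.98 still hold the shift between the genotypes that selected the pair, so neither is support.

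Distance along the cluster was set beside these values as a description. The 3 pairs among miR-322 and miR-503 had a median r of -0.31, and the 6 pairs among the miR-542 and miR-450 assays 0.03. The 12 pairs across the gap between Mir351 and Mir542 had a median r of -0.10. The first set includes the miR-322 assays of both cards and the second the arms of Mir542, which are pairs within a hairpin. The third includes the pair that selected the cluster. In replicates 1 and 2 alone, 4 aortas in all, the median over the 21 pairs was -0.23 and 7 pairs changed sign. With U6 alone as reference the median r was 0.45, and no median over all assay pairs is given for that reference to set beside it. The shared reference enters every pair, and 6 aortas give each r a wide error.

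**Figure D5:**
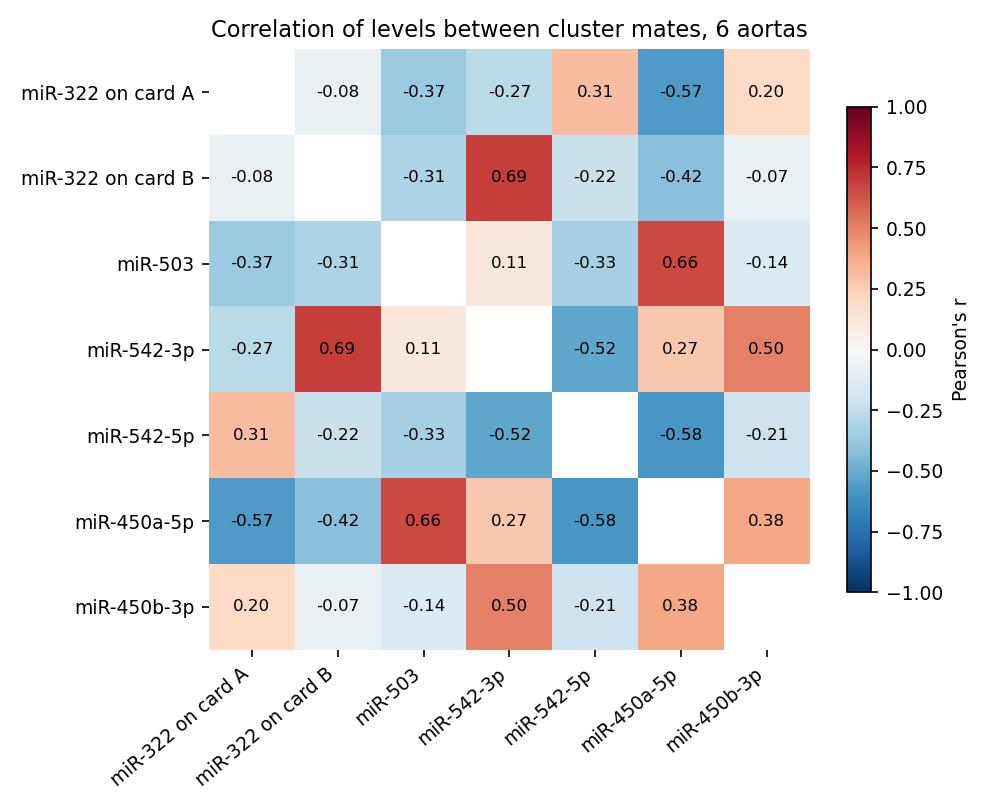
Pearson's r between the levels of the 7 cluster assays over the 6 aortas, from blue (negative) to red (positive). The highest value, 0.69, joins miR-322 on card B and miR-542-3p, and the arms of the miR-542 hairpin stand at -0.52.

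For each member at least 1 assay outside the cluster had a higher r than any mate. Far more assays lie outside the cluster than in it, so a higher r outside is likely in any case, and nothing is read from this. Among 393 other assays ranked by r, the best mate came 172nd for miR-322 on card A, 140th for miR-542-5p and 77th for miR-450b-3p. It came 57th for miR-450a-5p, 26th for miR-503, 17th for miR-542-3p and 6th for miR-322 on card B. MiR-542-3p and miR-322 on card B were the best mates of each other. They are the pair that selected the cluster, so their ranks rest on the selecting values and are no support.

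The mean level of the 7 assays was -9.81, -9.80 and -9.52 in EC-Dicerflox and -9.80, -9.95 and -10.34 in EC-DicerWT aortas, lowest in EC-DicerWT replicate 3. The assays most like this mean over the 6 aortas were miR-1896 (r of 0.97), miR-1966 (0.93), miR-467F (0.90), miR-1188 (0.90) and miR-665 (0.89), out of 387 ranked. Without the third replicates these values were 0.81, 0.66, 0.81, 0.70 and 0.08, and the likeness of miR-665 was thus not seen without those aortas. All of these assays were picked as the highest of 387 over few aortas. The mean also holds miR-542-3p and miR-322 on card B, which had chosen the cluster. Nothing is read from the likeness of any of them.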

How the data were processed

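The authors reverse transcribed total RNA from 6 mouse aortas, amplified the cDNA beforehand with pooled rodent primers and measured it on TaqMan cards. The deposited score is the raw Ct, 1 column per mouse, with no reference subtracted, and how the threshold was set is not given in the sources used here. Cards were told apart by the length of the assay number. Levels were the mean Ct of U6, snoRNA135, snoRNA202, U87 and Y1 minus the Ct, with undetected wells kept at 40. Of 596 miRNA assays, 439 with a Ct under 40 in at least 3 aortas entered limma 3.58.1 in R 4.3.3 (lmFit, eBayes, two-sided, Benjamini-Hochberg over all 439), and the fit was checked on simulated data. SE values are the moderated ones. A log2 unit is a doubling only at full PCR efficiency, which was not measured. Read depth does not apply, and 3 mice per group limit the precision.

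The cluster and its lists were chosen with earlier results of these data known. Named were all members, their seed mates, the passenger strands and the 5 assays most like the members' mean. Sequences and positions are from RefSeq on GRCm38.p6, and the files hold no coordinates. Alternatives were other references (global mean, U6, snoRNA135, per card), a detection limit of Ct 35, detection in all aortas or no filter, undetected wells left missing, a replicate block, replicates 1 and 2 alone and leaving out each aorta. The third replicates as a batch term were added after seeing the data.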

Additional observations from a re-analysis of the deposited data

How the results depend on the processing

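The difference of miR-542-3p was above zero in every alternative fit, from 0.95 to 2.11, as was that of miR-322 on card B, from 0.37 to 0.97. Both differences had chosen the cluster in these same aortas, so their sign in the refits was largely set in advance and is no support. Of the other members detected everywhere each changed sign in at least 1 fit, within -0.88 and 0.60. The count of cluster assays past the unadjusted limma threshold was 0 with U6 alone, 0 with a replicate block and 0 in replicates 1 and 2 alone, from 0 to 2 when 1 aorta was left out, and 1 in the others. The count without overlap was 0 with U6 alone and 4 in replicates 1 and 2 alone, where fewer samples must separate, and from 2 to 3 when 1 aorta was left out. The share without overlap over all tested assays is given for the main fit only, so nothing is read from these counts. The median r between cluster mates was 0.45 with U6 alone, for which no median over all assay pairs is given. It ranged from -0.26 to 0.22 when 1 aorta was left out, with the positive value without EC-DicerWT replicate 1. Over all tested assays, 21 passed the unadjusted threshold, 11 with U6 alone and from 8 to 22 when 1 aorta was left out. A batch term for replicate 3, chosen after seeing the data, left 1 cluster assay past it. The cause of these changes was not tested. Replicate numbers were not treated as pairs. Deviations of same-numbered aortas correlated by 0.24, 0.03 and 0.39 for replicates 1, 2 and 3 across assays. The highest value was that of the third replicates, which also lay apart in many assays. No cluster assay had an adjusted limma P under 0.05 with or without the block, so the adjusted calls cannot decide this choice. Late Ct values limit miR-351 and miR-450b-5p most. MiR-542-3p was also late, with a Ct of 35.6 in EC-DicerWT replicate 3, and with a limit of Ct 35 its difference was 1.38.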

Other observations

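The raw Ct values of the miR-322 assays on cards A and B ran in exactly opposite order over the 6 aortas, which was noticed after the data were seen and is a description with no test. From EC-Dicerflox replicate 1, with 25.13 cycles on card A and 26.14 on card B, to EC-DicerWT replicate 1, with 24.67 and 27.67, each earlier Ct on card A went with a later Ct on card B. Pearson's r was -0.97 and Spearman's rho was -1. Without the 2 aortas farthest from the median on card A, r was -0.999, and in replicates 1 and 2 alone it was -0.98. On the level scale, where the same control mean enters both, r was -0.08. The range on card A was 0.46 cycles, against 1.53 cycles on card B. For the 6 other names detected on both cards, r of the raw Ct ranged from -0.89 to 0.64. What each assay reads, and why they run against each other, was not tested.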
